A study of Rattus norvegicus with 20 samples.

Results

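The miR-99/100 and miR-125 families were followed in rat kidney as 6 of the 719 rat microRNAs (miRNAs) on the array. The 6 were chosen by name: the guide strands rno-miR-99a-5p, rno-miR-99b-5p, rno-miR-100-5p, rno-miR-125a-5p and rno-miR-125b-5p, and the passenger strand rno-miR-125b-2-3p. A guide strand is the arm of the hairpin that is mainly kept, and a passenger strand is the other arm. Kidneys came from male Wistar rats of 80 to 100 g body weight. Rats were given aristolochic acid I (AAI, a plant acid that damages the tubules and forms DNA adducts) at 40 mg per kg intraperitoneally, and kidneys were taken on day 2, day 4 or day 6. Control rats were given the vehicle, PEG400 mixed 1:1 with water, and the control kidneys described here were taken on day 6 only, so days 2 and 4 have no vehicle of their own day. There were 4 groups of 5 kidneys, and the RNA of a kidney went onto 1 array, 20 in all. The labels do not say that the 5 kidneys of a group came from 5 animals, nor how often AAI was given, so p-values measure the spread between these samples.

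A miRNA binds target transcripts mainly through its seed, and miRNAs that share a seed can act on overlapping targets. The miR-99/100 family is known for targeting mTOR and the IGF1 receptor, and the miR-125 family, orthologs of the worm miRNA lin-4, for targeting p53 and the pro-apoptotic gene Bak1. Genes of both families sit in conserved clusters with a let-7 gene between them, so that one primary transcript can give a miR-99/100, a let-7 and a miR-125.

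The sequences show the seeds of 5 members, and miR-99a-5p is placed with the miR-99/100 group by its family name. They are RefSeq mature sequences of the GRCr8 table, found for 5 of the 6 members and for 641 of the 719 array miRNAs, printed 5′ to 3′ with the seed (bases 2 to 8) in capitals.
rno-miR-99b-5p: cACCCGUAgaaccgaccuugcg
rno-miR-100-5p: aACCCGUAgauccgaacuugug
rno-miR-125a-5p: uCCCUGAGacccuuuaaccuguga
rno-miR-125b-5p: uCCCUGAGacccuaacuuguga
rno-miR-351-5p: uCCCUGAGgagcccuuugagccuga
rno-miR-125b-2-3p: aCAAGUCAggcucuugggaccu
rno-miR-125b-1-3p: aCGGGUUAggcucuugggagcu
The seed ACCCGUA was shared by miR-99b-5p and miR-100-5p and by no other array miRNA with a sequence. Counted from the 5′ end of miR-100-5p, the pair was identical at 18 of 22 bases and differed by A1C, U11A, A16C and U21C. The seed CCCUGAG was shared by miR-125a-5p, miR-125b-5p and miR-351-5p. The first 13 and the last 5 bases of miR-125a-5p (24 bases) and miR-125b-5p (22 bases) were the same. miR-351-5p shared the first 8 and the last 3 bases with miR-125b-5p. The passenger seed CAAGUCA was shared by 0 other array miRNAs. miR-125b-1-3p is shown because it is the passenger strand of the other miR-125b hairpin.

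The 3 clusters lie on the plus strand in GRCr8. Mir99b, Mirlet7e and Mir125a span 696 bp at chr1:67350064-67350759, within the protein-coding gene Spaca6. Mir100, Mirlet7a-2 and Mir125b1 span 51828 bp at chr8:50798295-50850122, within Lnc215 (a long non-coding RNA gene) and Mir100hgl. Mir99a, Mirlet7c1 and Mir125b2 span 45268 bp at chr11:29687392-29732659, within the long non-coding RNA gene LOC103693508. rno-miR-125b-5p is made from the hairpins of both Mir125b1 and Mir125b2, so its signal cannot be assigned to one cluster. The array probes of the 5 members with a sequence end at the last base of the miRNA and leave out its first bases. The longest probe covers bases 7 to 22 of rno-miR-99b-5p and bases 6 to 24 of rno-miR-125a-5p.

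The scanner software marked 250 to 328 miRNAs as detected per array, with the highest number on AAI day 4 array 2. Of the 719, 357 were detected on at least 1 array, and tests were run on the 262 that some group showed on each of its 5 arrays. The 75th percentile of the signal, by which each array was scaled, averaged 367 on vehicle arrays and 452, 472 and 480 on AAI day 2, 4 and 6 arrays. Arrays lay on 3 slides. Vehicle arrays 1 to 4 were on slide 3, vehicle array 5, all day 2 arrays and day 4 arrays 1 and 2 on slide 2, and day 4 arrays 3 to 5 and all day 6 arrays on slide 1, so no slide held both vehicle and day 6. As markers of kidney, 6 of 6 tubule miRNAs on the list were detected on all 20 arrays. Of the muscle list, miR-1-3p was detected on 0 arrays, miR-133a-3p on 3 and miR-206-3p on 5. The liver miRNA miR-122-5p was detected on 4, and of the brain list miR-124-3p was detected on 3 and miR-9a-5p on all 20.

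At day 6, all 5 guide strands fell relative to vehicle kidneys, with no overlap between the groups. The scaled level fell by 12.3% for the least changed guide and fell by 21.1% for the most changed one. rno-miR-125a-5p and rno-miR-100-5p fell most, and rno-miR-125b-5p fell least. Of the 262 miRNAs tested, 19.1% were called lower at day 6 (limma, Benjamini-Hochberg adjusted p under 0.05) and 19.1% were lower with no overlap, against 5 of the 5 tested members. The median log2 change was -0.32 over the 5 guides and -0.11 over all 262. The direction rests on the scaling: without scaling all 5 guides were above vehicle, by 0.03 to 0.18, and with scaling to labelling spike-in spots miR-125b-5p was 0.06 above it.

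Levels below are log2 of the signal over the 75th percentile of the array, so they show changes of 1 miRNA across arrays and are not compared between miRNAs. In the miR-99/100 seed group, rno-miR-100-5p had levels of -0.89, -0.92, -0.95, -0.93 and -0.91 on the 5 vehicle arrays and -1.35, -1.05, -1.37, -1.34 and -1.17 on the day 6 arrays. Every day 6 array was below every vehicle array, and the vehicle arrays were much closer together. The log2 change was -0.34 ± 0.077 (SE, n = 5 per group), a 1.26-fold lower level (95% interval of the log2 change -0.50 to -0.17, limma adjusted p = 0.00375).

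rno-miR-99a-5p was read at 1.52, 1.39, 1.47, 1.36 and 1.45 in vehicle and at 0.97, 1.32, 0.99, 1.08 and 1.28 at day 6. Day 6 arrays 2 and 5 came close to the vehicle arrays without reaching them. The change was -0.31 ± 0.086 (limma adjusted p = 0.0114). rno-miR-99b-5p was read at -0.06, -0.12, -0.10, -0.12 and -0.12 in vehicle and at -0.38, -0.27, -0.61, -0.58 and -0.28 at day 6. Again no array overlapped, and day 6 arrays 2 and 5 were the highest of their group. The change was -0.32 ± 0.091 (limma adjusted p = 0.0126).

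In the miR-125 seed group, rno-miR-125a-5p had levels of 1.02, 0.95, 1.105, 1.03 and 1.05 in vehicle and 0.58, 0.76, 0.64, 0.73 and 0.74 at day 6. The groups were clearly apart. The change was -0.34 ± 0.076, a 1.27-fold lower level (limma adjusted p = 0.00303). rno-miR-125b-5p had levels of 2.52, 2.45, 2.56, 2.49 and 2.43 in vehicle and 2.21, 2.38, 2.26, 2.29 and 2.35 at day 6. The highest day 6 array lay just under the lowest vehicle array. The change was -0.19 ± 0.062, a 1.14-fold lower level (limma adjusted p = 0.0294), and the adjusted p passed 0.05 when any 1 of 6 arrays was left out, day 6 arrays 1, 3 and 4 and vehicle arrays 1, 3 and 4, reaching at most 0.0703. miR-351-5p, the third miRNA with this seed, was detected on 4, 2, 3 and 4 of 5 arrays in vehicle and on days 2, 4 and 6, so it was not among the 262. In a fit of all 357 miRNAs detected on any array its change at day 6 was 0.23 ± 0.22 (limma adjusted p = 0.456).

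**Figure D1:**
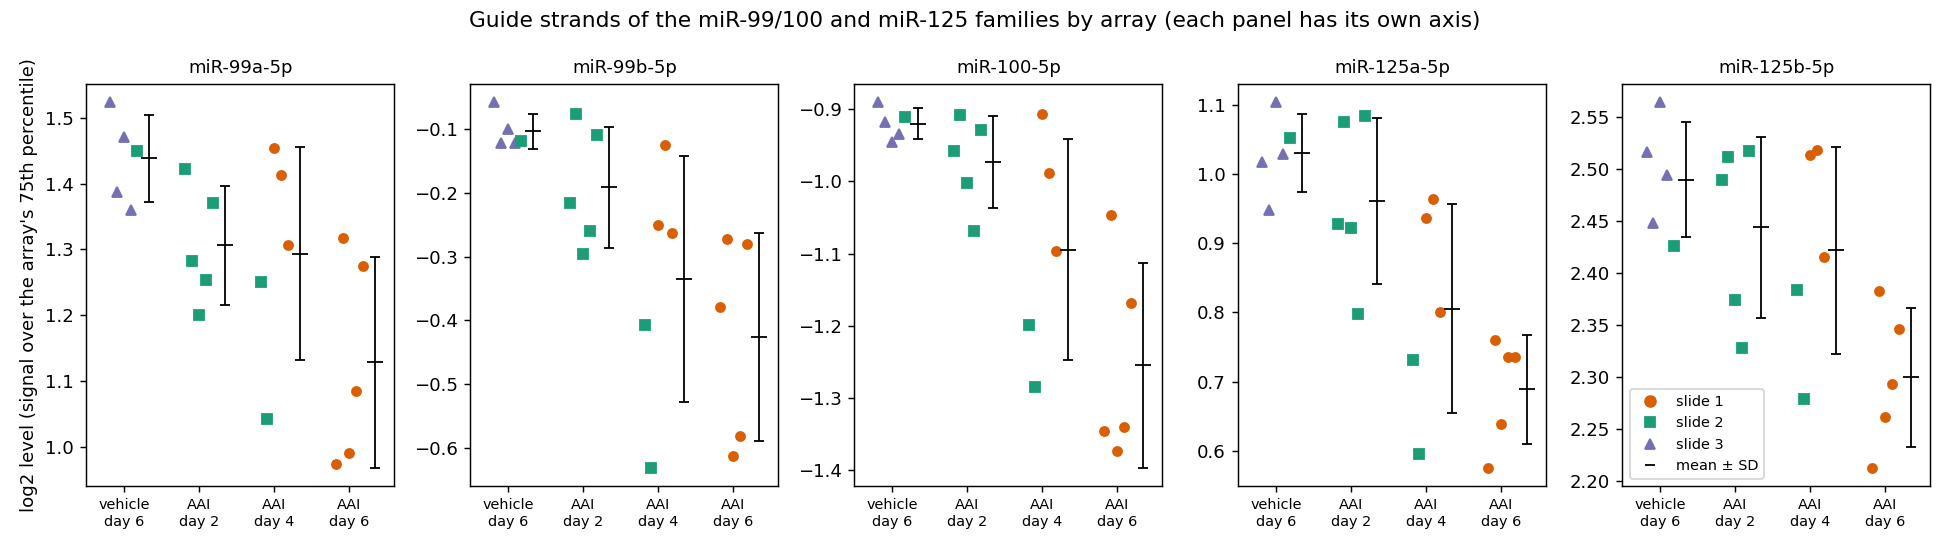
Log2 level (signal over the 75th percentile of the array) of the 5 guide strands on each of the 20 arrays, with a panel and an axis per miRNA, shape and colour by slide, and bars for the mean ± SD of 5 arrays. In each panel the day 6 arrays lie below the vehicle arrays on this scale, and day 4 arrays 1 and 2 (slide 2) lie below day 4 arrays 3 to 5 (slide 1); without scaling the day 6 means are above vehicle.

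Both probes of each guide changed in the same direction at day 6, from -0.15 and -0.20 for rno-miR-125b-5p to -0.41 and -0.31 for rno-miR-125a-5p. Scaling by 1 factor per array moves all miRNAs alike, so it cannot change the distance between the guides and the others. The median of all miRNAs went from -0.11 to 0.25 without scaling and to 0.14 with spike-in scaling, and the median of the 5 guides from -0.32 to 0.048 and -0.067. Processing that can change this distance made it smaller in 4 settings. The medians of the guides and of all miRNAs were -0.25 and -0.11 with quantile normalization, -0.25 and -0.10 with normexp background correction, -0.11 and 0.044 with the total gene signal of the scanner software, and -0.23 and -0.13 in the deposited series table. The total gene signal is not a clean alternative. It was not the sum of a miRNA's detected probes in 22.6% of detected miRNA and array pairs. Of the 231 miRNAs used for scaling, 57 were off on at least 1 array. The number of guides called lower went from 5 to 0 without scaling, with scaling to the median or to the spike-in spots, and with that total gene signal, to 2 in the deposited series table, and to 3 with quantile normalization. Over all miRNAs the split was 50 lower and 19 higher as reported, 1 lower and 33 higher without scaling, 11 lower and 16 higher with scaling to the median, 2 lower and 19 higher with spike-in scaling, and 4 lower and 19 higher with total gene signal. With slide as a fixed block 4 guides were called, and the median change was -0.59 over the 5 and -0.33 over all miRNAs, but that fit ties vehicle to day 6 through vehicle array 5 and the day 4 arrays, and without day 4 array 2 it called 0. No slide held both vehicle and day 6 arrays, so slide and treatment cannot be told apart between them other than through that link.

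**Figure D2:**
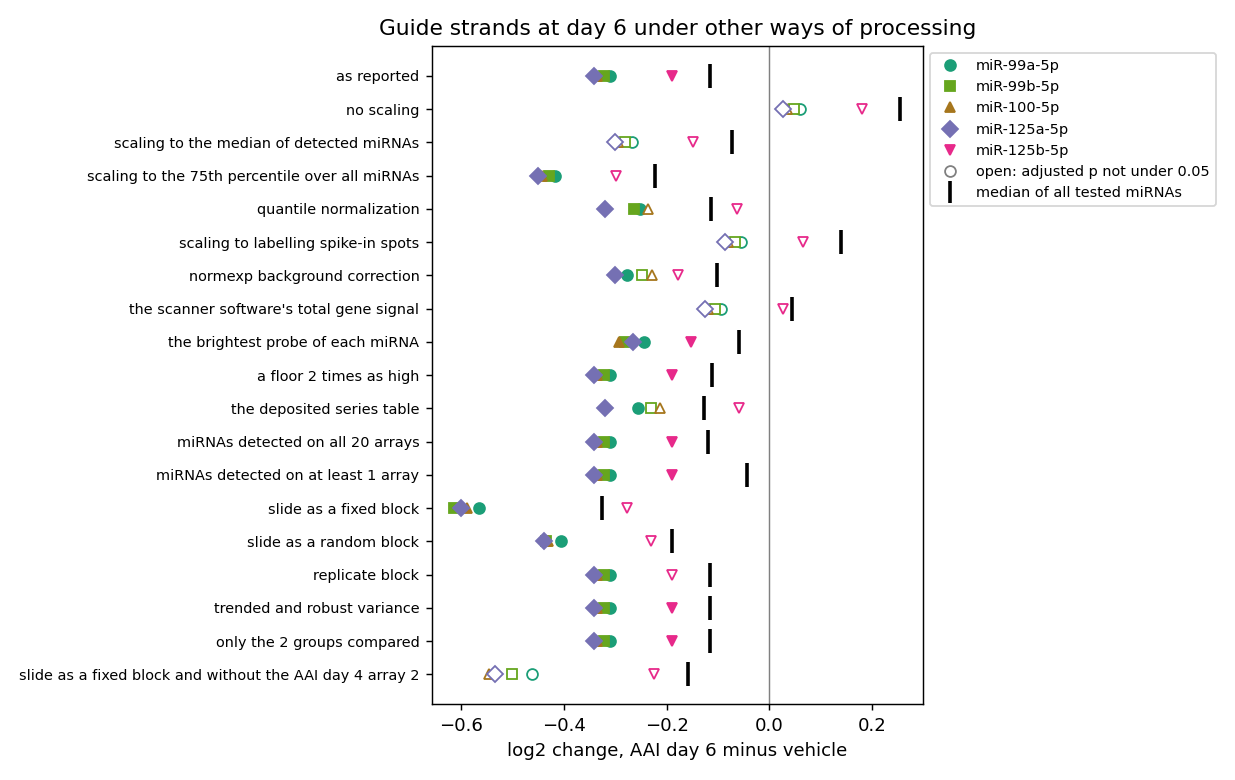
Log2 change of the 5 guide strands, AAI day 6 minus vehicle, under each way of processing, filled where the limma adjusted p is under 0.05, with the median of all tested miRNAs as a vertical bar. The median of the 5 guides lies left of that of all miRNAs in each row, though miR-125b-5p alone lies right of it with quantile normalization, in the series table and with the slide block, and all move together with the scaling: all 5 guides are above 0 without scaling, and miR-125b-5p also with spike-in spots and total gene signal.

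In bulk kidney, fewer cells of a type and less of a miRNA per cell cannot be told apart. At day 6 the summed level of the 6 tubule markers was 20.3 to 24.9, against 26.4 to 27.6 in vehicle, and 3 of the 6 were called lower. The 5 stromal and smooth muscle markers summed to 7.27 to 9.03 against 8.36 to 9.61 (1 of 5 lower), the 2 endothelial markers to 6.98 to 8.78 against 8.94 to 9.15 (1 of 2 lower), the 5 leukocyte markers on the array to 1.81 to 2.50 against 2.51 to 2.60 (1 of 5 lower), and the 2 erythrocyte markers on the array to 0.0559 to 0.202 against 0.407 to 1.34. In the erythrocyte list miR-451-5p was called lower, at a log2 change of -2.73. On the same scale 19.1% of all tested miRNAs were called lower. The marker sums share the scaling of the guides and were not computed without it. Over all miRNAs 1 was called lower and 33 higher at day 6 without scaling. The part of these cell types in the change of the guides was not tested.

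At day 2, 0 of the 5 tested guides were called in either direction, where 1.53% of all tested miRNAs were, and 0 had an unadjusted p under 0.05. The 5 changes lay between -0.13 (rno-miR-99a-5p) and -0.05 (rno-miR-125b-5p), all with 95% intervals that span 0, and without scaling or with spike-in scaling all 5 were above vehicle.

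At day 4, 0 of 5 guides were called, against 3.82% of all tested miRNAs in either direction. The limma adjusted p was 0.109 for rno-miR-125a-5p (-0.23 ± 0.076), 0.144 for rno-miR-99b-5p (-0.23 ± 0.091), 0.183 for rno-miR-100-5p (-0.18 ± 0.077), 0.315 for rno-miR-99a-5p (-0.14 ± 0.086) and 0.535 for rno-miR-125b-5p (-0.07 ± 0.062). The first 3 of these had an unadjusted p under 0.05, and without day 4 array 4 miR-125a-5p was called (adjusted p = 0.0486). miR-99b-5p was read at -0.41, -0.63, -0.25, -0.13 and -0.26, all under its lowest vehicle array, where 3.82% of all miRNAs were lower with no overlap. The gap was very small, from -0.1255 on the highest day 4 array to -0.1216 on the lowest vehicle array. The day 4 group was spread by slide: miR-100-5p had levels of -1.20 and -1.29 on the slide 2 arrays and -0.91, -0.99 and -1.10 on the slide 1 arrays, and the means of the other 4 guides were also lower on slide 2. On slide 1, which held both days, miR-100-5p averaged -0.997 on 3 day 4 arrays and -1.26 on 5 day 6 arrays. Without scaling all 5 guides at day 4 were above vehicle, by 0.13 to 0.29.

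Group means of each guide followed one order on this scale, vehicle, day 2, day 4, day 6 from high to low. No neighbours in that order differed beyond their spread for any guide. Between day 2 and day 4, and between day 4 and day 6, 0 of 5 guides were called (background 0% and 0.763% of all tested miRNAs, in either direction), and 0 had an unadjusted p under 0.05. Between day 2 and day 6, 2 of 5 were called lower, against 8.02% of all. rno-miR-100-5p was -0.96, -0.91, -1.002, -1.07 and -0.93 at day 2, so that its group overlapped day 6 through day 6 array 2 alone (-0.28 ± 0.077, limma adjusted p = 0.0250). rno-miR-125a-5p was 0.93, 1.08, 0.92, 0.80 and 1.08 at day 2, all above day 6, where 7.25% of all miRNAs were lower with no overlap (-0.27 ± 0.076, limma adjusted p = 0.0270). Both calls were lost without day 2 array 1, 2 or 5 or day 6 array 1, 3 or 5, without scaling, and when only these groups were fitted. miR-99b-5p (-0.23, adjusted p = 0.1001), miR-125b-5p (-0.14, adjusted p = 0.150) and miR-99a-5p (-0.18, adjusted p = 0.196) were not called in limma between days 2 and 6. With slide as a fixed block all 5 guides were called between days 2 and 6, where 67 of 262 miRNAs were called lower and 28 higher, against 21 and 9 as reported. Between days 2 and 4 that block called 2 guides, with 23 miRNAs lower and 11 higher against 0 and 0. Without AAI day 4 array 2 it called 0 miRNAs in either comparison.

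**Figure D3:**
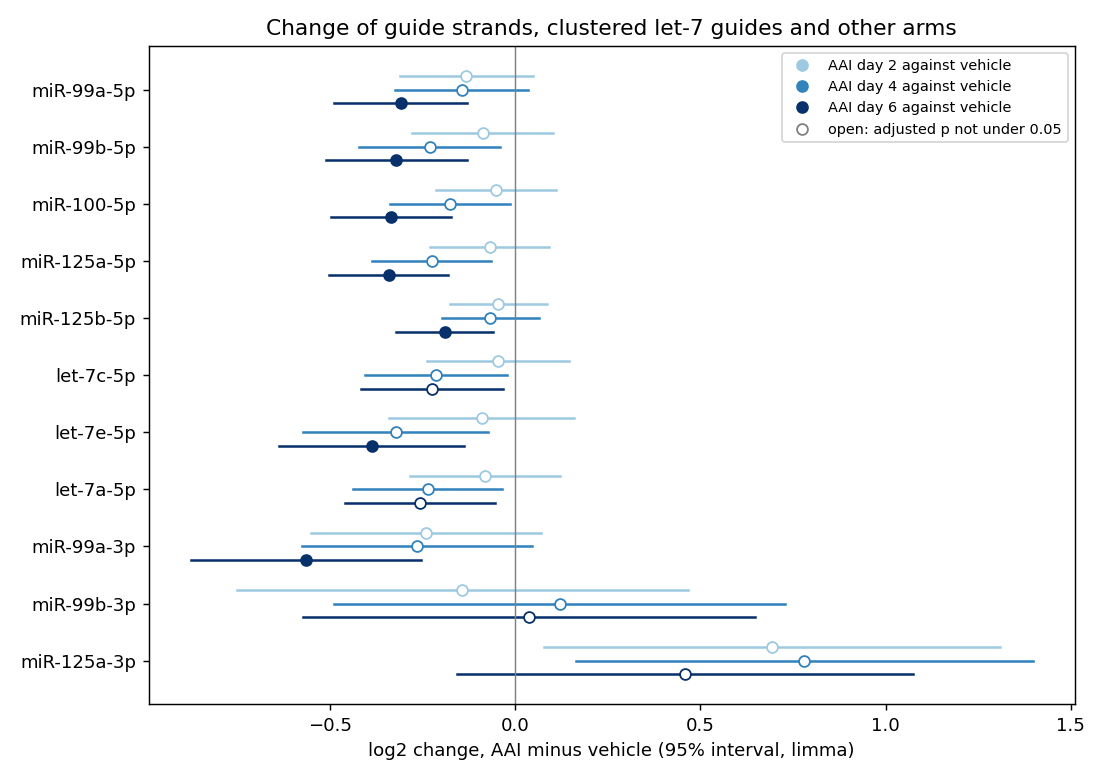
Log2 change from vehicle with its 95% interval (limma) at day 2, 4 and 6 for the 5 guide strands, the 3 let-7 guides of the same clusters and the 3 other arms that were tested, filled where the adjusted p is under 0.05. The filled points are all at day 6 and all below 0 on the reported scale; without scaling the 5 guides at day 6 lie between 0.03 and 0.18 above vehicle.

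As seed groups, the 3 miR-99/100 guides averaged 0.14 ± 0.03 (SD, n = 5) on the vehicle arrays and 0.05 ± 0.07, -0.05 ± 0.16 and -0.18 ± 0.15 on the AAI day 2, 4 and 6 arrays. The 2 miR-125 guides averaged 1.76 ± 0.05 on the vehicle arrays and 1.70 ± 0.10, 1.61 ± 0.13 and 1.49 ± 0.07 on the AAI arrays, in the same order. On this scale both groups were therefore lowest at day 6, with no array overlapping vehicle, where 19.1% of all tested miRNAs were lower with no overlap. Without scaling all 5 guides were above vehicle at day 6, by 0.03 to 0.18. The difference between the group means, which no scaling by 1 factor per array can change, was 1.62 ± 0.05 in vehicle and 1.66 ± 0.05, 1.66 ± 0.04 and 1.68 ± 0.10 at days 2, 4 and 6. Its ranges overlapped, 1.57 to 1.69 in vehicle and 1.57 to 1.79 at day 6, so the seed groups did not separate beyond their spread.

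Within the miR-125 seed group the members were compared by their ratio. It passed the correction on no day, but at days 4 and 6 the correction could not decide. The log2 ratio of rno-miR-125b-5p to rno-miR-125a-5p within each array was 1.498, 1.498, 1.46, 1.46 and 1.37 in vehicle and 1.56, 1.44, 1.45, 1.53 and 1.43 at day 2. It was 1.65, 1.68, 1.58, 1.55 and 1.61 at day 4 and 1.64, 1.62, 1.62, 1.56 and 1.61 at day 6. All day 4 and day 6 arrays were above all vehicle arrays, while day 2 overlapped them. The change was 0.02 at day 2, 0.16 at day 4 and 0.15 at day 6. At days 4 and 6 the two-sided exact permutation test gave p = 0.00794, the smallest that 5 against 5 arrays can give. Adjusted over the 21 ratio tests it was 0.0833, so neither day passed. With only these tests at the smallest p, no lower adjusted value was possible, so the correction cannot decide whether the ratio changed. Relative to slide, which a fixed block takes into account, the changes were 0.11, 0.29 and 0.32, and within slide 2, where vehicle is 1 array, 0.11 at day 2 and 0.29 at day 4. Vehicle array 5, the one on slide 2, had the lowest ratio of all 20.

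**Figure D4:**
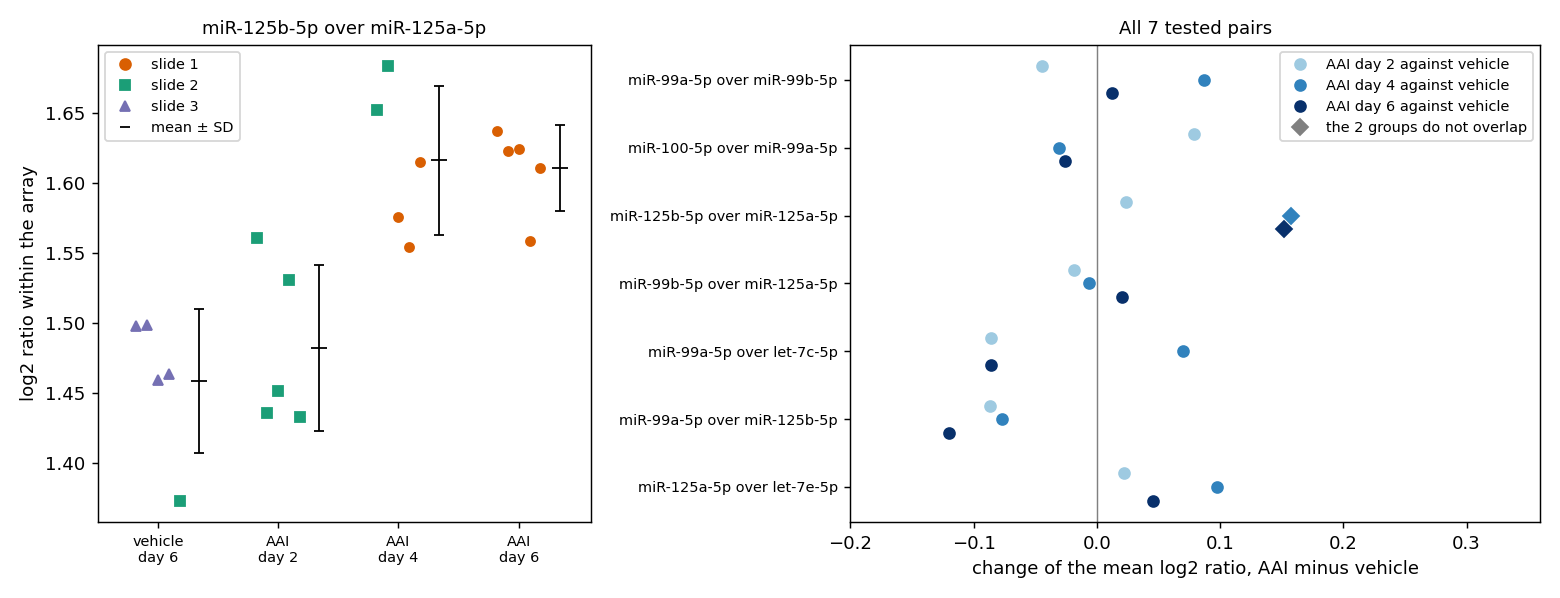
Left, log2 ratio of miR-125b-5p to miR-125a-5p on each of the 20 arrays by group, with shape and colour by slide and bars for the mean ± SD. Right, change of the mean log2 ratio from vehicle for the 7 pairs tested at 3 days, with diamonds where the groups do not overlap, which are the day 4 and day 6 points of miR-125b-5p over miR-125a-5p (0.16 and 0.15).

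None of the other 18 ratio tests passed either (0 of 21 at an adjusted p under 0.05), and in them the groups overlapped. In the miR-99/100 seed group the ratio of rno-miR-100-5p to rno-miR-99a-5p changed by -0.03 and that of miR-99a-5p to rno-miR-99b-5p by 0.01 at day 6 (exact permutation p = 0.460 and 0.873). Within the Mir99b cluster, miR-99b-5p over rno-miR-125a-5p changed by 0.02 and miR-125a-5p over let-7e-5p by 0.05 at day 6. For the Mir99a cluster, whose miR-125b-5p and let-7c-5p are also made from other loci, miR-99a-5p over rno-miR-125b-5p changed by -0.12 (exact permutation p = 0.0635, adjusted 0.313) and miR-99a-5p over let-7c-5p by -0.09 (p = 0.111, adjusted 0.313).

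The let-7 guides of the clusters are not members but share the primary transcripts; let-7a and let-7c are also made elsewhere. At day 6, 1 of the 3 was called lower, where 19.1% of all tested miRNAs were. It was let-7e-5p, from the shortest cluster, at -0.39 ± 0.12 (limma adjusted p = 0.0209). let-7a-5p was at -0.26 ± 0.096 (adjusted p = 0.0552) and let-7c-5p at -0.22 ± 0.091 (adjusted p = 0.0765). let-7e-5p and let-7a-5p did not overlap vehicle, where 19.1% of all tested miRNAs were lower with no overlap, and let-7c-5p did. Among 28 alternatives let-7a-5p was called lower in 6 and reversed in sign in 1, and let-7c-5p was called lower in 4 and reversed in 2. Without scaling let-7e-5p was at -0.02 and the other let-7 guides were above vehicle, and the call of let-7e-5p was lost without day 6 array 3 or 4 or vehicle array 3. The call was also lost with median (-0.35) or spike-in (-0.13) scaling, quantile normalization (-0.08) and normexp (-0.35). The same held for total gene signal (-0.17), the series table (-0.09) and the slide block without day 4 array 2 (-0.81).

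Across the 20 arrays each pair of the 5 guides had a Pearson r of 0.83 to 0.91 in log2 level, a description over arrays that share their scaling. The 2 non-member miRNAs most like each guide were miR-196b-5p (0.95) and miR-126a-3p (0.92) for rno-miR-99a-5p, let-7e-5p and miR-151-5p (both 0.94) for rno-miR-99b-5p, and miR-196a-5p (0.94) and miR-196b-5p (0.93) for rno-miR-100-5p. They were miR-196a-5p (0.96) and let-7b-5p (0.93) for rno-miR-125a-5p, and miR-196a-5p (0.90) and miR-30e-3p (0.89) for rno-miR-125b-5p. let-7e-5p is a neighbour of miR-99b-5p in the Mir99b cluster and miR-151-5p, at the same r, is not. miR-10a-5p and miR-10b-5p, relatives of the miR-99/100 family, were not called at day 6 (-0.10 and -0.11, adjusted p = 0.552 and 0.408).

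The passenger strand rno-miR-125b-2-3p was detected on 0 of 5 vehicle arrays, 1 of 5 at day 2, 4 of 5 at day 4 and 3 of 5 at day 6. Detection means that at least 1 of its 4 probes, which are 12 to 15 bases long, exceeded 3 times its own error. Fisher's exact test against vehicle gave p = 1, 0.0476 and 0.167, and 1, 0.143 and 0.25 after adjustment over the 3 days, so no day passed. Of the 429 miRNAs detected on no vehicle array, 2.8% were detected on at least 1 array at day 2, 0.932% on at least 4 at day 4 and 2.56% on at least 3 at day 6.

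The detection rested on a narrow margin. The highest ratio of a probe to its error was 2.80, 2.13, 2.87, 2.63 and 2.67 on the vehicle arrays and 2.08, 1.56, 3.28, 2.39 and 2.14 on the day 2 arrays. It was 2.32, 3.19, 3.57, 3.06 and 3.26 at day 4 and 2.40, 3.03, 4.65, 4.84 and 2.80 at day 6. Most vehicle arrays were thus close under the limit of 3, most day 4 arrays close above it, and only day 6 arrays 3 and 4 were well past it. The 15-base probe alone passed on all of the detected arrays except day 6 arrays 3 and 4, where the 14-base probe passed too. The 12-base and 13-base probes passed on 0 arrays. The arrays with the passenger detected had 250 to 328 detected miRNAs and a 75th percentile signal of 309 to 592, and the other 12 had 258 to 304 and 312 to 535. The part of array brightness in its detection was not tested.

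As a scaled log2 level, rno-miR-125b-2-3p was -5.36, -5.40, -5.41, -5.39 and -5.75 in vehicle and -5.07, -5.78, -5.43, -5.57 and -6.01 at day 2. It was -5.40, -5.20, -5.49, -4.96 and -5.12 at day 4 and -5.47, -4.76, -4.32, -4.50 and -5.24 at day 6. Day 6 array 1 lay within the vehicle range and the other 4 day 6 arrays above it. The change was -0.11, 0.23 and 0.60 at days 2, 4 and 6 (two-sided exact permutation p = 0.556, 0.111 and 0.0397, adjusted over the 3 days 0.556, 0.167 and 0.119). In the same exact permutation test the adjusted p at day 6 was 0.0238 without day 6 array 1, 0.0238 without scaling and 0.0476 with scaling to the median. At day 4 it was 0.0238 without scaling (0.59), and at day 2 0.0476 with the brightest probe (-0.28). The passenger was not among the 262 miRNAs tested with limma. In the fit of all 357 miRNAs detected on any array it was at 0.60 ± 0.20 at day 6. Between days 2 and 6 the passenger was at 0.71 ± 0.20. It entered that fit through AAI arrays alone, since no vehicle array showed it. That fit therefore cannot serve as a test of the passenger, and its p-values are left out. The sign did not hold under every correction: with normexp background correction the day 6 change was -0.07, with the brightest probe alone 0.23, and without scaling 0.97. On the scale of the summed signal, the 12-, 13-, 14- and 15-base probes changed by 2.29, 1.34, 0.43 and 0.18 at day 6. The largest changes were thus in the 12-base and 13-base probes, which passed the detection limit on no array. Their mean signals were -0.14 and -0.24 in vehicle and 1.71 and 1.18 at day 6. Against the guide miR-125b-5p, the passenger went the other way on the reported scale and the same way without scaling (0.18 and 0.97, guide first), with spike-in scaling (0.065 and 0.86) and with normexp (-0.18 and -0.074). Scaling by 1 factor per array moves guide and passenger alike, so of these settings only normexp can change the distance between them.

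**Figure D5:**
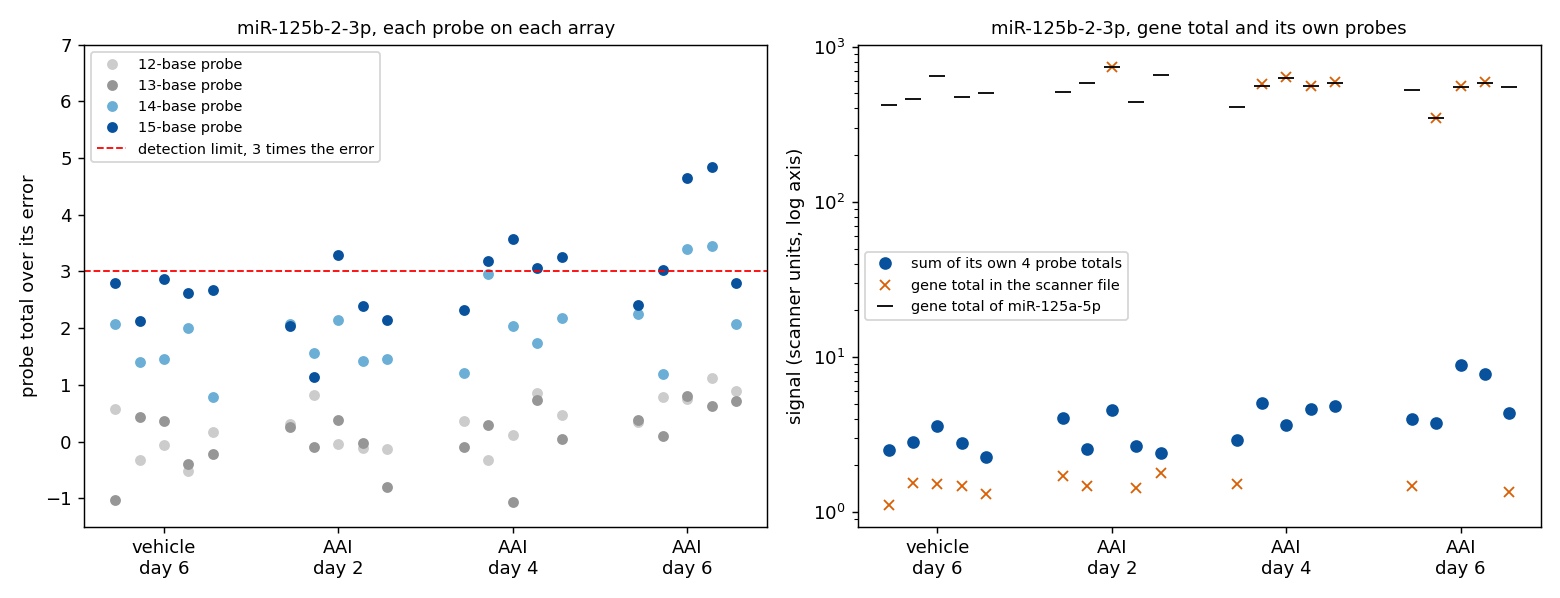
Left, ratio of each of the 4 probes of miR-125b-2-3p to its own error on the 20 arrays by group, with the detection limit of 3 as a dashed line: the 15-base probe lies at 2.13 to 2.87 in vehicle and at 2.40 to 4.84 at day 6. Right, on a log axis in scanner units, the sum of its own probe totals, the gene total given for it by the scanner software and the gene total of miR-125a-5p, on which the former lies wherever the passenger is detected.

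The gene total that the scanner software gives for rno-miR-125b-2-3p cannot be read as its level. On the 8 arrays with detection it was 349 to 746, whereas its own 4 probe totals summed to 3.66 to 8.85 there. On 7 of these arrays the gene total equalled that of rno-miR-125a-5p plus the detected probes of the passenger, with at most 0.00042 left over, and on AAI day 4 array 2 the 19.1 left over equalled the detected probe total of miR-125b-1-3p to that precision. On the 12 other arrays the gene total was 1.12 to 1.77 and its own probe totals 2.27 to 4.38. Over the array, the gene total was not the sum of a miRNA's detected probes (within 1%) in 1256 of 5551 detected miRNA and array pairs, or 22.6%. The 5 guides matched on all 20 arrays, and levels here are sums of each miRNA's own spots, so they are not touched. The detection call equalled the probe rule in all 14380 pairs.

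The longest probe of the passenger and that of miR-125b-1-3p, shown with the base that differs in capitals, are nearly alike.
rno-miR-125b-2-3p: agGtcccaagagcct
rno-miR-125b-1-3p: agCtcccaagagcct
They differ by G3C, counted from the 5′ end of the miR-125b-2-3p probe. miR-125b-1-3p itself was detected on 1 array each at days 4 and 6 and on 0 arrays in vehicle and at day 2. Signal of one strand on the probe of the other was not tested.

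The passenger strands of the other hairpins did not follow one pattern. miR-99a-3p, detected on 5, 4, 5 and 4 arrays, was -4.16, -4.39, -4.09, -4.39 and -4.21 in vehicle and -4.98, -4.76, -4.83, -4.69 and -4.82 at day 6. The groups did not overlap, as with its guide. The change was -0.57 ± 0.15 (limma adjusted p = 0.00773). The call was lost without scaling (-0.20), with scaling to the median (-0.52) or the spike-in spots (-0.31), and with normexp (-0.13). It was also lost with the slide block without AAI day 4 array 2 (-0.89) and with total gene signal (-1.26). That total was not the sum of the detected probes of miR-99a-3p on any of the 18 arrays that detected it. miR-125a-3p, detected on all 20 arrays, was higher by 0.69 ± 0.29, 0.78 ± 0.29 and 0.46 ± 0.29 at days 2, 4 and 6 without passing the test (limma adjusted p = 0.387, 0.144 and 0.244), and its groups overlapped. Its sign held in all 29, 29 and 28 alternatives tried at days 2, 4 and 6. At day 6 its change ranged from 0.20 to 1.80 in them, and it was called in 1 of the 28. miR-99b-3p, also detected on all 20, was not called at day 6 (0.04 ± 0.29, adjusted p = 0.941), and miR-100-3p was detected on 0 arrays.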

How the data were processed

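Total RNA of kidney (mirVana extraction, Cy3 label, per the labels' protocols) was hybridised to 1-colour Agilent miRNA arrays with probe coordinates on rn4. Agilent Feature Extraction 10.7.1.1 made the spot values, per the file headers, and the deposited values are background-subtracted intensity with no scaling between arrays. The deposited detection and outlier flags, 0 or 1, are neither intensity nor ratio. The deposited series table holds log2 values whose scaling and centring are not given in the sources used here, so it served as an alternative.

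For each miRNA the mean spot intensity of every probe was taken and the probes were added up, without control and outlier-flagged spots (373 to 559 flagged per array, 0 saturated). It was divided by the array's 75th percentile over the 231 miRNAs detected on all 20 arrays, floored at 0.000391 (7 of 5240 tested values) and put on a log2 scale. One limma fit (version 3.58.1, R 4.3.3) covered all 20 arrays (16 residual and 2.03 prior degrees of freedom) without a block, with Benjamini-Hochberg adjustment over 262 miRNAs within each comparison, and with the fit tested on simulated data. Errors after ± are SE of a change or SD of a level. The number of arrays limits precision. Ratios within an array were tested by two-sided exact permutation over all splits of 5 against 5 arrays. Fisher's exact test of detection was added afterwards. Named are the members, the other arms of their hairpins, the clustered let-7 guides, miRNAs sharing a seed, miR-10 relatives and, per guide, the 2 most correlated non-members. The members and lists were chosen with earlier results of these data known. Other scalings, background corrections, floors, filters, slide and replicate blocks and leaving out arrays were tried as alternatives.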

Additional observations from a re-analysis of the deposited data

Results flagged for a closer look

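Among 76 groups of 5 arrays checked for a value far from the others, 4 held one, and chance alone gives such a value in about 1 of 20 groups. The passenger miR-125b-2-3p was lowest on vehicle array 5, with a log2 level of -5.75 against -5.41 to -5.36 on the other 4. miR-99b-3p was high on AAI day 4 array 2, the array with the most detected miRNAs, at -1.31 against -3.38 to -3.001, and so was its log2 ratio to miR-99b-5p, at -0.68 against -3.12 to -2.59. The log2 ratio of miR-99a-5p to let-7c-5p was highest on vehicle array 1, at -2.90 against -3.15 to -3.08. The changes from vehicle of miR-100-5p and miR-125a-5p differed between day 6 and day 2, by -0.28 and -0.27 in limma on all arrays. Both comparisons share the vehicle arrays, so this is the day 6 against day 2 comparison itself.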

How the results depend on the processing

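The number of guides called at day 6 was 5 as reported, 0 without scaling, with median or spike-in scaling, with total gene signal, and with a slide block without AAI day 4 array 2 (added after seeing the data). It was 2 with normexp or the series table, 3 with quantile normalization and 4 to 5 when 1 array was left out. Over all miRNAs the 50 lower and 19 higher calls became 19 and 5 with normexp and 0 and 0 with the slide block without AAI day 4 array 2. At day 4 leaving out 1 array gave 0 to 1. Between days 2 and 6 the number was 2 as reported, 0 without scaling, with median, spike-in or 75th percentile over all miRNAs scaling, normexp, total gene signal, only the 2 groups, or a slide block without day 4 array 2, 1 with quantile normalization or the series table, 5 with a slide block, and 0 to 2 when 1 array was left out. Between days 2 and 4 a slide block gave 2 in place of 0. For miR-125b-2-3p at day 6 leaving out 1 array gave 0.47 to 0.75. The cause of these differences was not tested.

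Signs reversed most without scaling (18 results). Log2 changes were then, for miR-100-5p, miR-125a-5p, miR-125b-5p, miR-99a-5p and miR-99b-5p, 0.24, 0.23, 0.25, 0.16 and 0.21 at day 2, 0.19, 0.14, 0.29, 0.22 and 0.13 at day 4, and 0.034, 0.027, 0.18, 0.060 and 0.048 at day 6, with let-7a-5p at 0.11 and let-7c-5p at 0.15 at day 6 and miR-125b-2-3p at 0.18 at day 2. With spike-in scaling the guides were, in that order, 0.20, 0.19, 0.21, 0.12 and 0.17 at day 2, with miR-125b-2-3p at 0.15, then miR-100-5p at 0.0056, miR-125b-5p at 0.11 and miR-99a-5p at 0.036 at day 4, and miR-125b-5p at 0.065 and let-7c-5p at 0.031 at day 6. With total gene signal miR-100-5p, miR-125a-5p, miR-125b-5p and miR-125b-2-3p were 0.032, 0.016, 0.039 and 1.63 at day 2, and miR-125b-5p 0.024 at day 4 and 0.027 at day 6. The 1.63 cannot be read as a change of miR-125b-2-3p. On the only day 2 array that detected it, that total held the total of miR-125a-5p. miR-125b-5p was 0.083 and 0.011 at days 2 and 4 with quantile normalization, 0.089 and 0.020 in the series table, 0.0052 at day 2 with normexp, and 0.018 at day 2 within slide 2 and with either slide block. miR-125b-2-3p was 0.28 at day 2 in the series table and -0.080 and -0.074 at days 4 and 6 with normexp. The ratio of miR-125b-5p to miR-125a-5p was -0.0079 at day 2 with the brightest probe.

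Correlations of same-numbered arrays with vehicle were -0.26 to 0.28 at day 2 (4 of 5 over 0.1), -0.49 to 0.53 at day 4 (3 of 5) and -0.21 to 0.08 at day 6 (0 of 5), and between days 2 and 4 -0.31 to 0.64 (2 of 5). They were over 0.1 for all 5 numbers in no comparison, so the numbers were not taken to pair samples. With a replicate block 4 guides were called at day 6, without miR-125b-5p, which then had an adjusted p of 0.0614.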
